A study of Bos taurus with 12 samples.

Results

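Prostaglandins are lipid signals that the uterine lining makes and releases, and 7 genes of their synthesis, reception and breakdown were followed here across bovine endometrium. The 7 genes are PTGS1, PTGS2, PTGES, AKR1B1, PTGDS, PTGFR and HPGD. They were found on the array by the gene name, accession or description that the scanner files give each probe, and the brightest probe stood for a gene. All 7 had a probe, of 5843 genes named on the array, and 6 of them passed the filter on dim probes and were tested. PTGFR did not pass it.

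Samples were taken from the uterine lining (endometrium) of Japanese-Black cattle at day 15 of their estrous cycle, near the time at which the corpus luteum regresses. The 4 groups of 3 samples were CL-side summer, CL-side autumn, non-CL-side summer and non-CL-side autumn. CL side is the uterine horn next to the ovary that carries the corpus luteum, the progesterone-secreting body, and non-CL side is the opposite horn. No treatment or genotype separated the groups, each sample was hybridised alone to a 1-colour array, and no label says whether replicates are different cows, so p-values reflect only how far these samples spread.

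Both cyclooxygenases, PTGS1 and PTGS2, turn arachidonic acid into the prostaglandin that all later synthases share. PTGES makes prostaglandin E from it, PTGDS makes prostaglandin D, and AKR1B1, an aldo-keto reductase, is known in cattle for prostaglandin F synthase activity in the endometrium. Prostaglandin F from the uterus reaches the ovary and ends the life of the corpus luteum, PTGFR is the receptor that binds it, and HPGD inactivates prostaglandins.

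The probes are 60 bases long and their last 30 bases are printed here because every value below was read through them and because the 2 probes of each cyclooxygenase differ. The letters run 5′ to 3′ as the scanner files give them, and capitals mark the hexamer AATAAA, the usual signal for cutting and polyadenylating a transcript. The first probe of PTGS1 and of PTGS2 is the one used, and the second is its dimmer partner.
PTGS1 used: atggcagctgtttctcatgaagctAATAAA
PTGS1 second: atagaggagtatgtgcagcagctgagcggc
PTGS2 used: atttggaatatatgagtgttttggtgcctc
PTGS2 second: ggactgctatttagctcctcttaagaagat
PTGES: ggatgtAATAAAtgaggacttctcacctac
AKR1B1: ctggggaacatgcaacccaaatactctttt
PTGDS: gctctgaaAATAAActctgaagcaagtcag
PTGFR: ggaactttggcaattagccaggtattttgc
HPGD: cttcactatacattgtgctttgaattattg

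The probes used for PTGS1, PTGES and PTGDS hold AATAAA on the printed strand, and those of PTGS2, AKR1B1, PTGFR and HPGD do not. Of all 15208 probes on the array that are not controls, 11.3% hold the hexamer on the printed strand and 14.9% on either strand. The longest run of bases that the 2 probes of PTGS1 shared was 7, and that of the PTGS2 probes 5, so the sequences of each pair differ. That does not show that both probes of a pair read the same bovine transcript. The used PTGS1 probe carries only aliases such as COX1 and PGHS1 as its name in the files, and its accession had no match among the RefSeq genes of ARS-UCD2.0. Its identity therefore rests on the description in the files, and whether it binds the bovine transcript was not tested. The same holds for the second PTGS2 probe, which is named COX2 and hCox-2, and for the HPGD probe, which is named PGDH. The AKR1B1 probe and the second PTGS1 probe carry those gene names, but they too were matched by description and not by accession. The second PTGS1 probe was well above background on 0 of 12 arrays and the second PTGS2 probe on 1 of 12.

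The arrays lay on 2 slides: slide 1 held 8 arrays, all 6 of summer and the first replicate of both autumn groups, and slide 2 held the 4 other autumn arrays. Signal was even across 11 arrays, whose 75th percentile lay between 3516 and 4418, but CL-side summer replicate 2 had a 75th percentile of 2007. That array also correlated less with the others (median r over probes 0.93, against a lowest pairwise r of 0.97 among the other 11). Results that rest on it are therefore given with and without it. The 13 epithelial and 10 stromal markers with a probe all passed the filter on dim probes, as did 12404 of 15208 probes and the measured smooth muscle, neutrophil and T and NK cell markers, so passing it does not test the endometrial label.

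Values are log2 signals relative to the 75th percentile of the array, so 0 means a signal as bright as that percentile. Probes differ in how well they bind, so a probe's level was not set against that of another, and each is placed only by its rank among all probes of an array. AKR1B1 ranked at the 98.6th to the 99.3rd percentile on the 11 arrays other than CL-side summer replicate 2, and HPGD at the 95.6th to the 99.1st. PTGDS ranked at the 94.9th to the 97.8th percentile on all 12 arrays, PTGS2 at the 66.9th to the 92.8th and PTGS1 at the 46.3rd to the 56.7th. PTGES ranked at the 44.5th to the 62.1st percentile on the 11 arrays and at the 77.5th on CL-side summer replicate 2. PTGFR ranked at the 3.44th to the 31.5th percentile, and was well above background on 4 of 12 arrays.

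**Figure D1:**
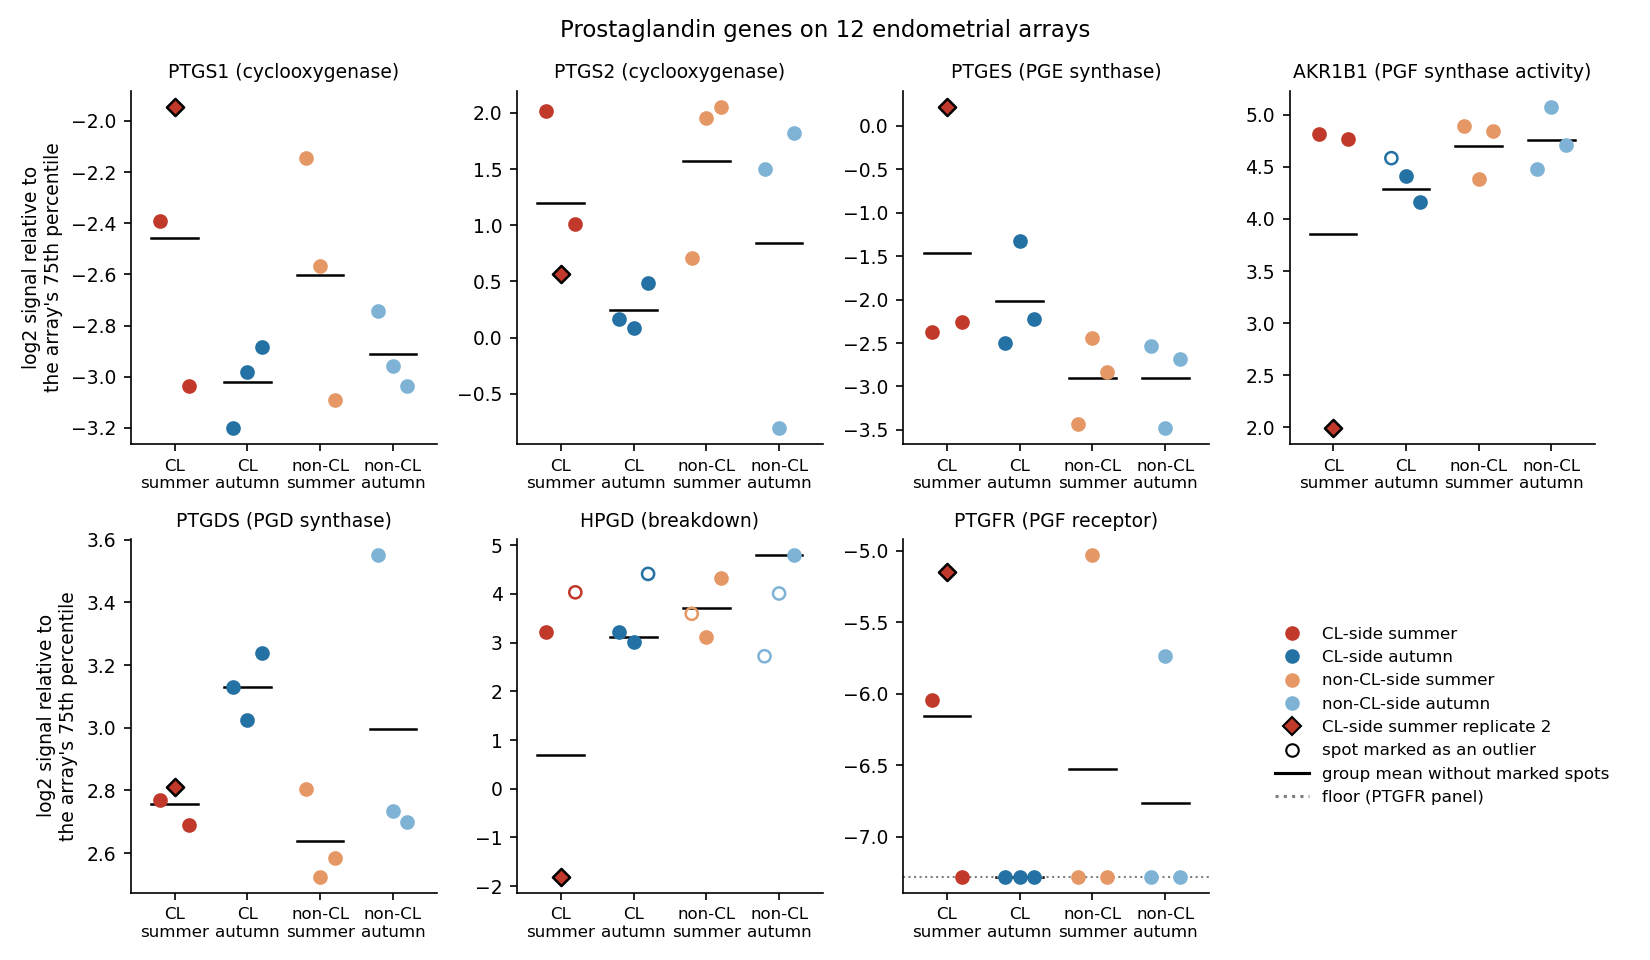
Log2 signal of the 7 prostaglandin genes relative to the array's 75th percentile (vertical axes, a separate scale per gene) in 4 groups of 3 samples; points are samples, bars are group means without spots marked as outliers, open points are marked spots and the diamond is CL-side summer replicate 2. The diamond is the lowest point for AKR1B1 (1.99) and HPGD (−1.81) and the highest for PTGES (0.22).

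No gene of the 6 tested passed the threshold of 0.05 on the adjusted p in any comparison, and neither did any other probe on the array (0% of the probes tested in each of 7 comparisons, limma with Benjamini-Hochberg adjustment). At an unadjusted p under 0.05, 0 of the 6 genes passed for summer against autumn in the CL-side horn, where 9.92% of the probes tested did. None passed in the non-CL-side horn, where 1.12% did, or over the mean of both horns, where 4.02% did. PTGES alone passed for CL side against non-CL side in summer, where 1.41% did, and none passed in autumn, where 1.86% did. Over the mean of both seasons, PTGES again was the 1 gene of 6 to pass, beside 1.66% of all probes. None passed for the season change on the CL side minus that on the non-CL side, where 1.88% did.

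PTGS2, the inducible cyclooxygenase, had higher mean levels in summer than in autumn in both horns. It measured 2.02, 0.57 and 1.01 in CL-side summer, against 0.16, 0.09 and 0.48 in CL-side autumn. It measured 0.70, 1.96 and 2.06 in non-CL-side summer, against 1.50, −0.81 and 1.82 in non-CL-side autumn. In the CL-side horn each summer value lay above each autumn value, with 0.57 just over 0.48, which held in the same direction for 7.97% of probes. In the non-CL-side horn the seasons overlapped, and the spread came mostly from the 1 low autumn value.

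The summer minus autumn change of PTGS2 was 0.95 ± 0.65 (SE) on the CL side (1.94-fold, unadjusted p = 0.171, adjusted p = 0.579, limma), and 1.27 ± 0.72 without CL-side summer replicate 2 (2.41-fold, unadjusted p = 0.112, adjusted p = 0.840). On the non-CL side it was 0.73 ± 0.65 (adjusted p = 1, limma). Averaged over the same-numbered horns of a season, PTGS2 measured 1.36, 1.26 and 1.53 in summer, against 0.83, −0.36 and 1.15 in autumn. The 6 means did not overlap, with 1.26 just over 1.15. A gap of that kind in that direction was seen for 5.48% of probes. The gap rests on joining horns by a number whose meaning is not stated. Joining the lowest values of both summer horns, 0.57 and 0.70, would give a mean under 1.15. The change in the 6 means of same-numbered horns was 0.84 ± 0.38 (1.80-fold, unadjusted p = 0.066, adjusted p = 0.895, limma), and 1.08 ± 0.40 without CL-side summer replicate 2 (unadjusted p = 0.033, adjusted p = 0.833). Without non-CL-side autumn replicate 2, the array with the lowest value, the non-CL-side change was −0.09.

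With slide as a block the PTGS2 change in the horn means was 0.55. Slide 2 held only autumn arrays, so that value sets the summer means against the 1 autumn mean on slide 1. With the replicate number as a block the unadjusted p of the change was 0.034 (adjusted p = 0.746, limma). Immediate early genes, the first to respond when cells are stimulated, varied among the same arrays. Their list of 16 genes, of which 13 were measured and none was below background throughout, summed to 23.1 to 77.5 times the 75th percentile in CL-side summer, against 12.5 to 21.5 in CL-side autumn. The sums were 13.3 to 67.1 in non-CL-side summer, against 13.7 to 24.1 in non-CL-side autumn. Markers of neutrophils, phagocytic white blood cells, summed over 4 measured of 9 listed genes to 12.4 to 219 in CL-side summer, against 2.78 to 8.24 in CL-side autumn, and to 1.25 to 8.57 in non-CL-side summer, against 1.87 to 4.63 in non-CL-side autumn. None of the 4 was below background on all arrays, and the part of either list in the PTGS2 values was not tested. In such bulk tissue, fewer cells of a type and less RNA per cell cannot be told apart.

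The probe that carries the name PTGS1 was at the floor on all 12 arrays. Values here come from the used probe, which carries only aliases. Read by it, PTGS1, the constitutively expressed cyclooxygenase, varied less than PTGS2. It measured −2.39, −1.94 and −3.04 in CL-side summer, against −3.20, −2.98 and −2.88 in CL-side autumn, and −2.15, −2.57 and −3.09 in non-CL-side summer, against −2.74, −2.96 and −3.04 in non-CL-side autumn. The third summer replicate lay among the autumn values on the CL side and below them on the non-CL side, so the seasons overlapped in both horns. Its summer minus autumn change was 0.57 ± 0.29 on the CL side (1.48-fold, unadjusted p = 0.079, adjusted p = 0.510, limma), and 0.31 without CL-side summer replicate 2. The horn means changed by 0.44 ± 0.24 (unadjusted p = 0.111, adjusted p = 0.895, limma), and by 0.33 without that array. Between horns PTGS1 differed by 0.14 ± 0.29 in summer and −0.11 ± 0.29 in autumn, CL side minus non-CL side, both smaller than their errors, and by −0.11 in summer without that array.

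PTGES, the inducible prostaglandin E synthase, had higher mean levels on the CL side than on the non-CL side in both seasons. It measured −2.37, 0.22 and −2.25 in CL-side summer, against −3.44, −2.44 and −2.84 in non-CL-side summer. It measured −2.50, −1.33 and −2.22 in CL-side autumn, against −2.54, −3.48 and −2.68 in non-CL-side autumn. In each season every CL-side value lay above every non-CL-side value, by 0.07 in summer and 0.04 in autumn at the closest. Such a gap, higher on the CL side, was seen for 1.88% of probes in summer and 2.35% in autumn.

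The CL-side minus non-CL-side difference of PTGES was 1.44 ± 0.63 in summer (2.71-fold, unadjusted p = 0.045, adjusted p = 0.984, limma) and 0.89 ± 0.63 in autumn (1.85-fold, unadjusted p = 0.189, adjusted p = 1, limma). Over both seasons it was 1.16 ± 0.45 (2.24-fold, unadjusted p = 0.025, adjusted p = 0.999, limma). The size depended on CL-side summer replicate 2. Without that array the difference was 0.59 ± 0.41 in summer (1.51-fold, unadjusted p = 0.179, limma) and 0.74 ± 0.27 over both seasons (1.67-fold, unadjusted p = 0.023, adjusted p = 1). With slide as a block the summer difference had an unadjusted p of 0.058 and that over both seasons 0.035, and on slide 1 alone the difference over both seasons was 0.74 (unadjusted p = 0.350, limma). The season change on the CL side minus that on the non-CL side was 0.55 ± 0.89 (unadjusted p = 0.549), and −0.29 without that array, so no difference of the side effect between seasons was detectable.

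Joined by sample number within a season, all 6 pairs were higher on the CL side, though nothing says what the numbers mark. Because every CL-side value lay above every non-CL-side value, any pairing would give this count, so it adds nothing to that gap. The pair differences of PTGES were 1.07, 2.66 and 0.58 in summer and 0.04, 2.15 and 0.46 in autumn. All 6 pairs were higher on the CL side for 1.18% of the 12272 probes measured in every pair. The largest 2 differences belong to the second pair of each season, and leaving out CL-side autumn replicate 2 brought the autumn difference to 0.54. By season PTGES did not separate: its horn means were −2.90, −1.11 and −2.54 in summer, against −2.52, −2.40 and −2.45 in autumn, and the change was 0.27 ± 0.45 (unadjusted p = 0.562, limma), and −0.17 without CL-side summer replicate 2.

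**Figure D2:**
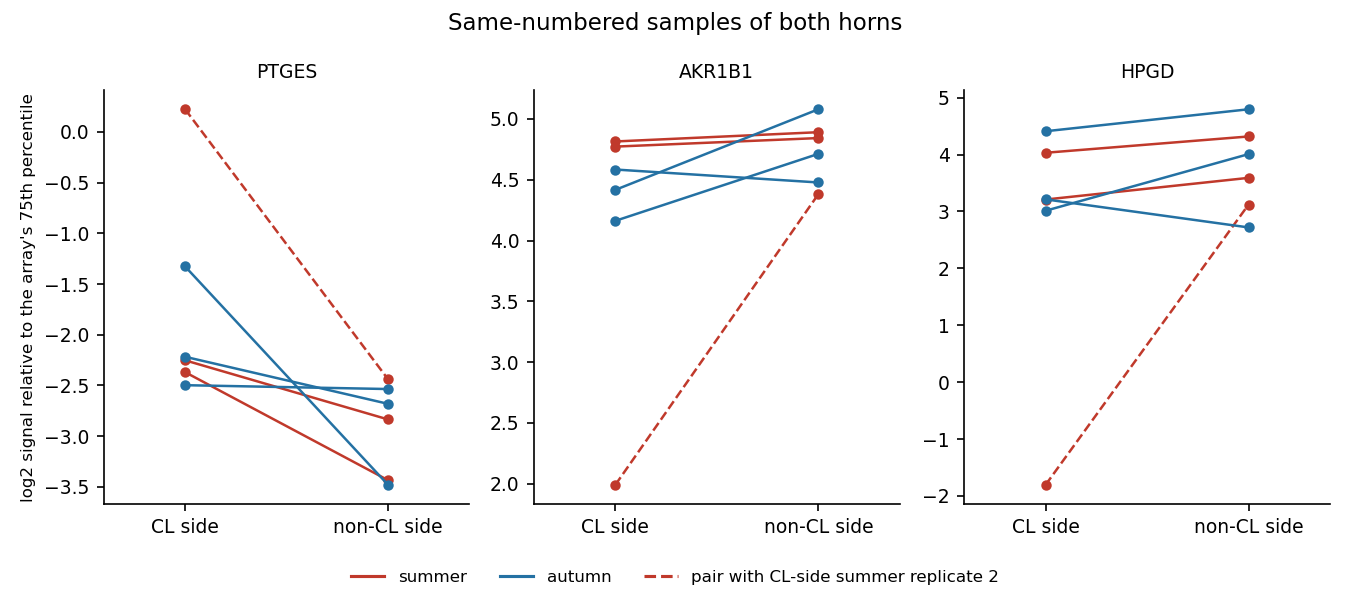
Log2 signal relative to the array's 75th percentile of PTGES, AKR1B1 and HPGD (a panel and scale each), with lines joining the CL-side and non-CL-side samples of 1 number in summer (red) and autumn (blue); the dashed line is the pair that holds CL-side summer replicate 2. All 6 lines fall toward the non-CL side for PTGES, and 5 of 6 climb for AKR1B1 and HPGD.

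AKR1B1 was among the brightest probes on 11 arrays and far lower on the remaining one. It measured 4.81, 1.99 and 4.77 in CL-side summer, against 4.42 and 4.16 in CL-side autumn, where the spot of replicate 1, at 4.58, was marked as an outlier by the scanner software and left out of the fit. It measured 4.89, 4.38 and 4.84 in non-CL-side summer, against 4.48, 5.08 and 4.71 in non-CL-side autumn. Apart from 1.99 in CL-side summer replicate 2, the values spanned 0.92 log2 units.

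The summer minus autumn change of AKR1B1 on the CL side was −0.43 ± 0.71 (unadjusted p = 0.562, adjusted p = 0.835, limma) and turned to 0.50 ± 0.24 without CL-side summer replicate 2 (unadjusted p = 0.070, adjusted p = 0.840). On the non-CL side it was −0.05 ± 0.64 (adjusted p = 1, limma). The CL-side minus non-CL-side difference was −0.85 ± 0.64 in summer (adjusted p = 0.984, limma) and 0.09 without that array, and −0.47 ± 0.71 in autumn (adjusted p = 1, limma). With the marked spot kept, 5 of the 6 pairs were lower on the CL side, and the pair differences ranged between −2.39 and 0.11. For 14.1% of probes at least 5 of the 6 pairs were lower on the CL side.

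PTGDS, the lipocalin-type prostaglandin D synthase, had lower mean levels in summer than in autumn in both horns. It measured 2.77, 2.81 and 2.69 in CL-side summer, against 3.13, 3.03 and 3.24 in CL-side autumn. The 3 summer values lay below the 3 autumn values in this horn, as they did for 5.02% of probes. It measured 2.81, 2.52 and 2.58 in non-CL-side summer, against 3.55, 2.74 and 2.70 in non-CL-side autumn, where the seasons overlapped and 1 autumn sample stood above the rest.

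The change of PTGDS was −0.37 ± 0.21 on the CL side (1.30-fold lower, unadjusted p = 0.109, adjusted p = 0.523, limma) and −0.36 ± 0.21 on the non-CL side (1.28-fold lower, unadjusted p = 0.124, adjusted p = 1, limma). Without non-CL-side autumn replicate 1 the non-CL-side change was −0.08. Its horn means were 2.79, 2.67 and 2.64 in summer, against 3.34, 2.88 and 2.97 in autumn, again apart, as they were in that direction for 5.13% of probes. The horn means changed by −0.37 ± 0.16 (unadjusted p = 0.061, adjusted p = 0.895, limma) and by −0.41 ± 0.16 without CL-side summer replicate 2 (unadjusted p = 0.036, adjusted p = 0.833). With slide as a block the change was −0.64, the same as on slide 1 alone. Slide 2 held only autumn arrays, so both values rest on the 1 autumn horn mean on slide 1, 3.34. That mean includes non-CL-side autumn replicate 1. CL-side summer replicate 2 lay 0.04 above the median of the other 11 arrays. Some marker lists also differed by season in the CL-side horn. The sums for smooth muscle, endothelium, mast cells, macrophages and dendritic cells, squamous epithelium and ciliated cells overlapped there. Stromal markers summed to 56.3 to 144 times the 75th percentile in CL-side summer, against 152 to 180 in CL-side autumn, epithelial markers to 44.0 to 103, against 39.8 to 43.7, and T and NK cell markers to 0.89 to 1.51, against 0.67 to 0.88. The ends 56.3 and 103 are CL-side summer replicate 2. The other arrays of that group summed to 115 and 144 for stroma and to 50.3 and 44.0 for epithelium. In the non-CL-side horn stromal markers summed to 126 to 137 in summer, against 123 to 136 in autumn. Epithelial markers summed there to 37.4 to 51.9, against 36.6 to 56.0, and T and NK cell markers to 0.63 to 1.30, against 0.73 to 0.98. The part of these lists in the PTGDS values was not tested.

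In the non-CL-side horn no tested gene had every summer value on 1 side of every autumn value, where 2.62% of probes were higher throughout and 3.45% lower. PTGS2 and PTGDS were so in the CL-side horn and in the horn means. The CL-side minus non-CL-side differences of PTGDS were 0.12 ± 0.21 in summer and 0.14 ± 0.21 in autumn, and those of PTGS2 were −0.37 ± 0.65 in summer and −0.59 ± 0.65 in autumn (all adjusted p at least 0.984, limma). Without CL-side summer replicate 2 the summer differences were 0.091 for PTGDS and −0.058 for PTGS2. The range of the 12 values was 1.03 log2 units for PTGDS and 2.86 for PTGS2.

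**Figure D3:**
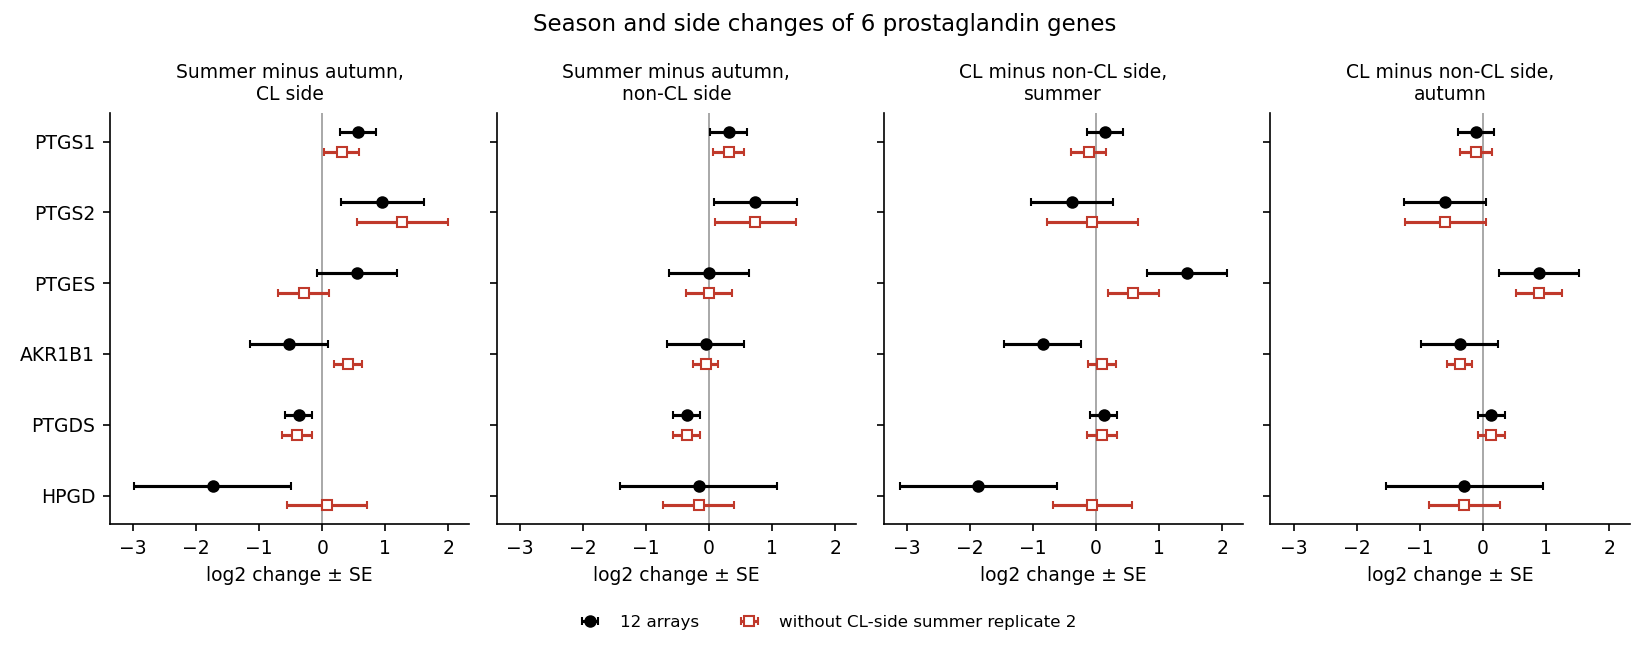
Log2 change ± SE of 6 prostaglandin genes for summer minus autumn in each horn and CL side minus non-CL side in each season, from 12 arrays (filled circles) and without CL-side summer replicate 2 (open squares), with spots marked as outliers kept. The PTGES side difference in summer moves between 1.44 and 0.59, and the negative CL-side season changes of HPGD and AKR1B1 move to 0.08 and 0.41 without that array.

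HPGD, the enzyme that starts the breakdown of prostaglandins, was bright on 11 arrays. Its spot was marked as an outlier by the scanner software on 5 of 12 arrays, and the fit leaves those spots out. With the marked spots kept, it measured 3.21, −1.81 and 4.03 in CL-side summer, against 3.21, 3.01 and 4.41 in CL-side autumn. It measured 3.59, 3.12 and 4.32 in non-CL-side summer, against 2.72, 4.01 and 4.80 in non-CL-side autumn. All groups overlapped, and −1.81 in CL-side summer replicate 2 lay 4.52 log2 units under the next value.

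The summer minus autumn change of HPGD on the CL side was −2.41 ± 1.57 (unadjusted p = 0.182, adjusted p = 0.587, limma, 2 samples a group) and −1.73 ± 1.24 with the marked spots kept. Without CL-side summer replicate 2 it was 0.10 ± 0.54, or 0.08 ± 0.63 with the marked spots kept. The CL-side minus non-CL-side difference in summer was −3.02 ± 1.57 (unadjusted p = 0.109, adjusted p = 0.984, limma) and −0.51 ± 0.54 without that array, or −0.06 ± 0.63 with the marked spots kept as well. With the replicate number as a block it was −4.93 (unadjusted p = 0.0016, adjusted p = 0.810, limma), which is the difference of the 1 summer pair measured in both horns, and that pair holds CL-side summer replicate 2. In autumn it was −1.68 ± 1.93 with 1 non-CL-side sample left in the fit, and −0.30 ± 1.24 with the marked spots kept. On the non-CL side summer minus autumn was −1.08 ± 1.93, and −0.16 ± 1.24 with the marked spots kept.

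PTGFR, the prostaglandin F receptor, was at or near the lower limit of the array. It was well above background in CL-side summer replicates 1 and 2, at −6.04 and −5.15, in non-CL-side summer replicate 2 at −5.03 and in non-CL-side autumn replicate 2 at −5.74. The other 8 values were at the floor of −7.28, among them all 3 of CL-side autumn. All groups overlapped at the floor, so no fold is given. With dim probes kept in the fit, the season change on the CL side had an adjusted p of 0.610 and the side difference in autumn an adjusted p of 1 (limma). Without CL-side summer replicate 2, 1 of 2 CL-side summer arrays measured PTGFR.

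On CL-side summer replicate 2, HPGD and AKR1B1 lay below and PTGES and PTGS1 above the range of the other 11 arrays, while PTGS2 and PTGDS lay within it. HPGD differed from the median of the others by −5.40 log2 units (42.1-fold lower), and 15 of the 12404 probes kept had a more negative difference. AKR1B1 differed by −2.72, where 144 probes were more negative, and PTGES by 2.72, where 166 probes were more positive. PTGS1 differed by 1.01, PTGS2 by −0.44 and PTGDS by 0.04. Of all probes kept, 23.2% differed by more than 1 log2 unit on that array.

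The marker lists moved on the same array. Epithelial markers summed to 103 times the 75th percentile there, against 36.6 to 56.0 on the other 11, stromal markers to 56.3, against 115 to 180, and smooth muscle markers to 51.4, against 3.0 to 46.5. Neutrophil markers summed to 219, against 1.25 to 15.3, and T and NK cell markers to 1.44, against 0.63 to 1.51. Squamous epithelium markers summed to 57.9, against 23.0 to 45.1, and ciliated cell markers to 7.86, against 2.52 to 5.92. Endothelial markers summed to 1.88, against 1.96 to 3.22, mast cell markers to 0.28, against 0.60 to 1.68, and macrophage and dendritic cell markers to 0.89, against 0.95 to 2.02. Averaging each gene's log2 distance to its own mean placed some lists differently. That average lay above the other 11 arrays for endothelium (0.50, against −0.36 to 0.28) and for T and NK cells (0.79, against −0.28 to 0.38). For smooth muscle it lay within their range (2.09, against −1.65 to 2.35). For the remaining lists the sum and the average lay on the same side of the other arrays. Every measured marker of these lists was well above background on at least 1 array, and their part in the values of the 7 genes was not tested.

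**Figure D4:**
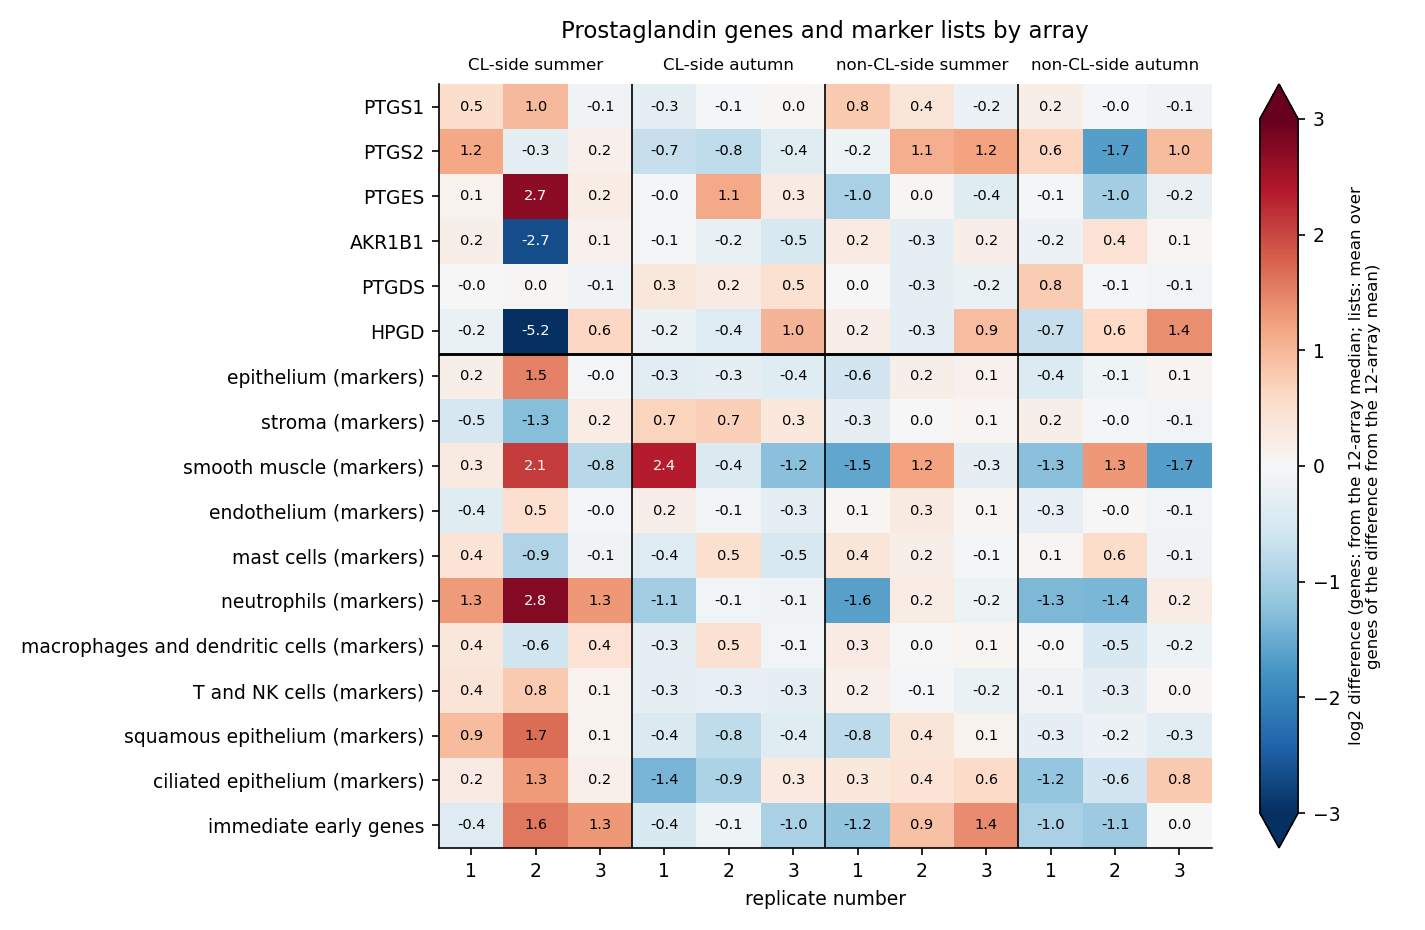
Rows are 6 prostaglandin genes (log2 difference from their 12-array median, spots marked as outliers kept) and 11 marker lists (a gene's log2 distance to its 12-array mean, averaged over the list), columns are the 12 arrays by group and replicate number, and colour and printed value give the difference. CL-side summer replicate 2 holds the lowest cells of AKR1B1 and HPGD and the highest cells of PTGES and of the epithelium and neutrophil lists.

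The group means were also ordered within each gene. For PTGES the order was CL-side summer, CL-side autumn, non-CL-side autumn, non-CL-side summer, and the step between the horns, 0.89, was the 1 step larger than the pooled SD of 0.87. Without CL-side summer replicate 2 the first 2 places changed over, and the step between the horns, 0.59, again exceeded the SD of 0.50. For PTGS2 the order was non-CL-side summer, CL-side summer, non-CL-side autumn, CL-side autumn, and no step exceeded the pooled SD of 0.90. For PTGDS it was CL-side autumn, non-CL-side autumn, CL-side summer, non-CL-side summer, and no step exceeded 0.26. No step exceeded the SD for PTGS1, or for AKR1B1 with all arrays. Without CL-side summer replicate 2 AKR1B1 was lowest in CL-side autumn, 0.42 under the next group, which exceeded its SD of 0.25. For HPGD, with groups of 2, 2, 2 and 1 unmarked spots, the step down to CL-side summer, 2.41, exceeded the SD of 2.11. With the marked spots kept no step exceeded the SD of 1.73, and without that array CL-side summer was no longer the lowest group.

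The wider prostaglandin pathway was read from 5 further lists, and none of their tested genes passed the adjusted p of 0.05 in any comparison (limma). Of 8 genes tested of the 18 listed for arachidonate release, none reached an unadjusted p under 0.05. Their median summer minus autumn change on the CL side was 0.20, against 0.02 over all probes. Without CL-side summer replicate 2 it was 0.07, again against 0.02. Of 8 of 13 other terminal synthases, 1 was lower at an unadjusted p under 0.05 in summer on the CL side and none higher. That is near the 9.92% of all probes that passed there. The median change was 0.09, with and without CL-side summer replicate 2. The lower gene was CBR3, a carbonyl reductase that acts on prostaglandins. It measured −0.63, −0.71 and −0.34 in CL-side summer, against −0.17, 0.49 and −0.29 in CL-side autumn. Its change was −0.57 ± 0.20 (unadjusted p = 0.016, adjusted p = 0.496, limma), and −0.49 without CL-side summer replicate 2.

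Of 8 of 12 other prostanoid receptors, 1 was higher at an unadjusted p under 0.05 in summer on the CL side and none lower. That is again near the 9.92% of all probes. The median change was 0.32, and 0.145 without CL-side summer replicate 2. TBXA2R, the thromboxane receptor, measured −5.66, −4.40 and −4.58 in CL-side summer, against −6.23, −6.02 and −5.89 in CL-side autumn. Its change was 1.16 ± 0.32 (unadjusted p = 0.004, adjusted p = 0.496, limma), 0.92 without CL-side summer replicate 2, and 0.17 in the authors' deposited values. PTGER3, a prostaglandin E receptor, measured −3.89, −6.45 and −3.82 in CL-side summer, against −3.13, −3.77 and −3.64 in CL-side autumn, and its change of −1.20 ± 0.61 was −0.34 without the array at −6.45 and −0.53 in the authors' deposited values. The season change of TBXA2R on the CL side minus that on the non-CL side was 1.13 ± 0.46 (unadjusted p = 0.031, adjusted p = 0.999, limma), 0.89 without CL-side summer replicate 2, and 0.22 in the authors' deposited values. In that comparison 1.88% of all probes had an unadjusted p under 0.05. For the side differences, the 5 lists held 8, 8, 8, 6 and 6 tested genes. Between horns, 1 of these genes reached an unadjusted p under 0.05, beside 1.41% of all probes in summer and 1.86% in autumn. It was PPARD, a nuclear receptor, at −1.06 ± 0.43 for CL side minus non-CL side in autumn (unadjusted p = 0.032, adjusted p = 1, limma), with 2 of its 3 CL-side autumn values at the floor and a change of 0.29 in the authors' deposited values.

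Among the genes of prostaglandin transport and breakdown, SLCO2A1, the prostaglandin transporter, changed by 0.70 ± 0.47 in summer on the CL side, by 0.17 without CL-side summer replicate 2 and by 0.02 in the authors' deposited values (adjusted p = 0.575 with all arrays, limma).

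All 6 receptors listed for the hormones that time luteolysis were tested. One, PGRMC2, a membrane progesterone receptor component, was lower in CL-side summer at an unadjusted p under 0.05, with −0.90, −0.87 and −0.79 in CL-side summer, against −0.62, −0.46 and −0.55 in CL-side autumn. Its change was −0.31 ± 0.12 (unadjusted p = 0.026, adjusted p = 0.496, limma), and −0.30 without CL-side summer replicate 2. That 1 of 6 genes stands beside 9.92% of all probes. The list median was −0.15, and 0.001 without that array. OXTR, the oxytocin receptor through which the uterus is driven to release prostaglandin F, measured −2.62, −0.60 and −3.74 in CL-side summer, against −5.62, −3.24 and −4.76 in non-CL-side summer. It measured −2.63, −1.31 and −4.65 in CL-side autumn, against −2.89, −2.78 and −5.69 in non-CL-side autumn. Its CL-side minus non-CL-side difference over both seasons was 1.57 ± 0.78 (unadjusted p = 0.072, adjusted p = 0.999, limma), and 1.14 without CL-side summer replicate 2.

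Among 4564 named genes measured on all 12 arrays, those whose values were most like a member's are given as a description, over arrays that share slides and groups. For PTGS2 they were TLR2, a receptor for bacterial lipoproteins (r = 0.93 over 12 arrays and 0.93 over 11), and SLC2A1, a glucose transporter (0.93 and 0.93). For PTGES they were FKBP11, a prolyl isomerase (0.94 and 0.91), and PYCARD, the inflammasome adaptor (0.93 and 0.82). For PTGDS they were SCD5, a stearoyl-CoA desaturase (0.91 and 0.91), and ACBD7 (0.89 and 0.91), and for PTGS1 the proteasome subunit PSMC5 (0.93 and 0.89) and LAX1 (0.92 and 0.87). For HPGD they were GM2A (0.98 and 0.93) and MTCP1 (0.98 and 0.86), and for AKR1B1 CROT (0.98 and 0.86) and CCNB1 (0.98 and 0.80). Ranked over 11 arrays without CL-side summer replicate 2, GM2A stayed first for HPGD. For the other members another gene came first: CMAS for PTGS2, FGD2 for PTGES, EHD1 for PTGDS, FST for PTGS1 and SLX1A for AKR1B1. Over 12 arrays r was −0.36 for FST and 0.02 for SLX1A.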

How the data were processed

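Endometrial RNA of 12 samples, in 4 groups of 3 by the sample titles, was labelled with Cy3 and read on 1-colour Agilent bovine arrays. The deposited files hold linear spot intensities, background-subtracted and detrended within each array by Feature Extraction 9.5.1.1, per the file headers. The submitters' processing notes name version 9.5. A second deposited table holds the authors' log2 values, whose 75th percentile lies near 0 in each column. It was used as an alternative, and how it treats low signals is unknown. The genome build of the array design is not stated in any source used here.

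Signals were scaled per array to the 75th percentile of 15208 non-control probes, put on the log2 scale and floored at −7.28, which is the lowest well-above-background signal of the array where that signal is highest. Outlier-marked spots, 466 in all, were set to missing. A probe was kept if every array of some group measured it well above background, which left 12404 probes. limma 3.58.1 in R 4.3.3 (lmFit, eBayes; two-sided) fitted the 4 group means with 8 residual degrees of freedom, and 6 means of same-numbered horns with 4, with Benjamini-Hochberg adjustment over all kept probes and a threshold of 0.05. SE denotes the standard error from the fit. The script was tested on simulated data. The number of arrays limits the precision.

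Same-numbered samples deviated together between horns (r of deviations from group means 0.14 to 0.50, all 6 pairs over 0.1) and between seasons (0.11 to 0.35, all 6 over 0.1), so a fit with the replicate number as a block was run beside this one. The titles give the numbers and nothing says what they mark. Other alternatives were quantile and normexp scaling, other filters and floors, the slide as a block or alone, each replicate left out, the deposited log2 values and, added after seeing the data, outlier-marked spots kept. Named were all 7 genes by their brightest probe, up to 3 genes per pathway list by smallest unadjusted p, and the 2 genes most correlated with each member. The members and lists were chosen with earlier results of these data known. The RefSeq gene table of ARS-UCD2.0 served for names only, and 5843 genes were named. One gene of the transport and breakdown list is not reported here.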

Additional observations from a re-analysis of the deposited data

How the results depend on the processing

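None of the 6 tested genes passed the adjusted threshold under any of the 25 alternatives. Of 999 recomputed changes of 6 tested genes, 944 kept their direction and 55 turned, and the cause of the turns was not tested. Some of the 944 could not turn, such as those recomputed without an array that lies outside the comparison. The paired fit (replicate block) changed no call at the adjusted threshold, and 39 of 39 changes kept their direction. For a gene with no spot marked as an outlier this fit returns the same change, so its direction could not turn. With the block the horn-mean season change of PTGS2 had an unadjusted p of 0.034, against 0.066 without it (adjusted p = 0.746 with it, limma). The summer side difference of HPGD with the block, −4.93, rests on the 1 summer pair measured in both horns. The side difference of PTGES over both seasons had an unadjusted p of 0.017 with the block, against 0.025 without it (adjusted p = 0.999 without it, limma). HPGD gave no value in that fit for autumn, the mean of both seasons or the season by side difference, because too few spots were measured. Averaging the probes of a gene gave no other value, since no second probe passed the filter. The number of probes past the threshold was 0 in each comparison; it was 1 for the non-CL-side season change on slide 1 alone. With 1 replicate left out it ranged between 0 and 7 for the CL-side season change, 0 and 6 for the side difference in autumn, and 0 and 1 for the side difference in summer, that over both seasons and the season by side difference.

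Turned values on the log2 scale were, for summer minus autumn on the non-CL side, 0.014 for PTGES under normexp and 0.056 with slide as a block, and 0.23 for AKR1B1 with slide as a block and on slide 1 alone. On slide 1 alone, PTGDS turned to −0.42 for the side difference in autumn, −0.15 over both seasons and 0.54 for the season by side difference, and PTGS1 to −0.16 over both seasons. On slide 2 alone PTGS1 turned to 0.063 for the side difference in autumn. With outlier-marked spots kept and CL-side summer replicate 2 left out, the CL-side season change turned to −0.30 for PTGES, 0.41 for AKR1B1 and 0.076 for HPGD, and the horn means to −0.17 for PTGES and 0.11 for AKR1B1. The side difference turned to −0.11 for PTGS1 and 0.089 for AKR1B1 in summer, and to −0.11 for PTGS1 over both seasons. The season by side difference turned to −0.0027 for PTGS1, −0.29 for PTGES, 0.46 for AKR1B1 and 0.24 for HPGD.

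With 1 replicate left out, the CL-side season change ranged between −0.30 and 1.0 for PTGES, −0.91 and 0.50 for AKR1B1 and −4.92 and 0.10 for HPGD. The non-CL-side season change ranged between −0.29 and 0.26 for PTGES, −0.19 and 0.11 for AKR1B1 and −0.088 and 1.22 for PTGS2, and the horn means between −0.17 and 0.72 for PTGES and −0.67 and 0.13 for AKR1B1. The side difference ranged between −1.32 and 0.089 for AKR1B1 and −0.11 and 0.43 for PTGS1 in summer, −0.012 and 0.41 for PTGDS in autumn, and −0.11 and 0.16 for PTGS1 over both seasons. The season by side difference ranged between −0.86 and 0.56 for AKR1B1, −3.84 and 1.17 for HPGD, −0.29 and 0.13 for PTGDS, −0.29 and 1.0 for PTGES, −0.0027 and 0.54 for PTGS1 and −0.27 and 1.04 for PTGS2. Signal near background limits PTGFR, which had no value above the floor on 8 of 12 arrays.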
